A study of Danio rerio with 20 samples.

Results

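The samples described here are sapje zebrafish at 30 days post fertilisation (dpf), set against sapje zebrafish at 5 dpf. The sapje line carries a mutation of dystrophin, the protein that anchors the contractile machinery of muscle fibres to the membrane and matrix, and is used as a fish model of Duchenne muscular dystrophy. Samples were chosen by their titles, and 5 of the 20 samples of the series belong here, 3 at 30 dpf and 2 at 5 dpf. All fish were of the TL strain, were fed the same shrimp diet and were used whole, and both ages carried the sapje mutation, so the comparison is one of age within the mutant. Zygosity is not given in the sources used here. The same age comparison was made for reference in the wild type fish of the sapje cohort (SW, 3 samples at 30 dpf and 2 at 5 dpf) and in sapje-like fish, a second dystrophin mutant line (3 and 2 samples). A second set of wild type fish, SLW (3 and 2 samples), entered the statistical fit, and its own age comparison is not given here. As inferred from spot residuals, each sapje sample shared an array with an SW sample of its own age. Each sapje-like sample shared one with an SLW sample in the same way. No array held both ages, so age cannot be told apart from array. RNA came from 10 fish per cohort, per the labels, which do not say whether samples of a group were separate pools of fish. The n given here counts samples, and the p-values treat them as independent, so the spread they measure may be technical.

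MicroRNAs are short RNAs that guide Argonaute proteins to messenger RNAs. Pairing rests mainly on the seed, bases 2 to 8 of the microRNA, so microRNAs with one seed form a family that can act on overlapping targets. Many are restricted to a tissue or a stage, such as miR-1 in striated muscle, miR-124 in neurons or miR-430 in the early zebrafish embryo, and in RNA from whole fish fewer cells of a type and less RNA per cell cannot be told apart.

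The sequences below are those of the microRNAs on which the age comparison turns, 5′ to 3′ as the array's files give them, with the seed in capitals. The first set was higher at 30 dpf and shows the let-7 seed GAGGUAG in its 4 members with the largest differences, the seed shared by both miR-146 members, and 4 microRNAs with seeds of their own:
let-7a: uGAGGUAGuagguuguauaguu
let-7c: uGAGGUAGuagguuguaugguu
let-7f: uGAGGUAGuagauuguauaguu
let-7i: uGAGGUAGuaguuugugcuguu
miR-146a: uGAGAACUgaauuccauagaugg
miR-146b: uGAGAACUgaauuccaagggug
miR-223: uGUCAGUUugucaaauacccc
miR-462: uAACGGAAcccauaaugcagcu
miR-451: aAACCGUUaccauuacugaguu
miR-739: aGGCCGAAguggagaaggguu

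The second set was lower at 30 dpf and shows both strands of miR-9, the 4 members that share the miR-10 seed, both miR-218 members, miR-124, the 3 miR-430 members that changed, and the pair of miR-130 members that changed. The muscle microRNA miR-1 is printed last because its age difference in sapje was unlike that in wild type SW:
miR-9: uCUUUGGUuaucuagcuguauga
miR-9*: uAAAGCUAgauaaccgaaagu
miR-10a: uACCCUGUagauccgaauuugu
miR-10b: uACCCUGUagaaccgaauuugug
miR-10c: uACCCUGUagauccggauuugu
miR-10d: uACCCUGUagaaccgaaugugug
miR-218a: uUGUGCUUgaucuaaccaugug
miR-218b: uUGUGCUUgaucuaaccaugca
miR-124: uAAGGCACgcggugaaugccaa
miR-430a: uAAGUGCUauuuguugggguag
miR-430b: aAAGUGCUaucaaguugggguag
miR-430c: uAAGUGCUucucuuugggguag
miR-130b: cAGUGCAAuaaugaaagggcau
miR-130c: cAGUGCAAuauuaaaagggcau
miR-1: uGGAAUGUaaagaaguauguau

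The array held 219 mature zebrafish microRNA probes, and 167 of them were above background in at least 2 samples of one of the 8 genotype and age groups and were tested. Of these, 136 were above background in all 5 sapje samples. A further 8 were above background in all 3 sapje samples at 30 dpf and in neither at 5 dpf, and 3 in both samples at 5 dpf and in none at 30 dpf. Of 20 microRNAs that mark the main tissues of a whole fish, 19 were above background in all 5 sapje samples and the erythroid miR-144 in none. Levels are given as normalised log2 intensity, in which a difference of 1 is a doubling. Because normalisation was by rank, different probes or samples can carry identical values, and at low intensity the scale compresses differences. Differences are 30 dpf minus 5 dpf with the standard error (SE) of the limma fit, which includes a term for the dye, so they can depart slightly from the difference of the sample means.

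Over the tested probes the 30 dpf samples correlated at 0.953 to 0.978, the 5 dpf samples at 0.990, and samples of different age at 0.804 to 0.830. The median standard deviation of a probe was 0.22 at 30 dpf and 0.11 at 5 dpf. Replicate 1 at 30 dpf stood apart in microRNAs of gut, liver and pancreas: it exceeded the mean of replicates 2 and 3 by 3.42 log2 units for miR-194a, 3.14 for miR-192, 2.43 for miR-122 and 2.12 for miR-217, the 4 widest such gaps of any tested probe. The part of this sample in the results was measured by leaving it out. That ended 3 of the calls given below, those of miR-18a, miR-214 and miR-731, and 56 were kept. Values without this sample are given for the microRNAs of gut, liver and pancreas and not for every probe.

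At 30 dpf 59 of the 167 probes (35.3%) differed from 5 dpf at an adjusted p below 0.05 in limma, 29 of them higher (17.4%) and 30 lower (18.0%). At an unadjusted p below 0.05 the count was 71. Counts given for lists below are to be read beside the adjusted shares over all tested probes. In all 59 the 3 samples at 30 dpf lay to one side of both samples at 5 dpf, as they did in 117 of the 167 tested (70.1%), 58 of those with 30 dpf higher (34.7%) and 59 with it lower (35.3%). Each age holds samples of both dyes, and the miR-9* difference, for example, was -3.88 among the Cy3 samples alone and -3.09 among the Cy5 samples alone, beside -3.57 in the fit. It was at least 2-fold for 47 and at least 4-fold for 17, and the median over all tested probes was 0.00. The split between higher and lower calls followed the scaling: median scaling gave 22 higher and 44 lower, with the median of all probes at -0.50, and scaling to the 75th percentile gave 48 higher and 12 lower, with that median at 0.32. The size of a difference followed the processing too: of the 59, 20 were over 1.5 times as large in log2 on the authors' deposited table, 11 were reduced by as much with no background correction, and scaling to the 75th percentile enlarged 11 and reduced 18 by as much. Without replicate 1 at 30 dpf the counts were 32 higher and 32 lower. Without replicate 1 at 5 dpf they were 13 higher and 20 lower, and without replicate 2 at 5 dpf 17 and 20.

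**Figure D1:**
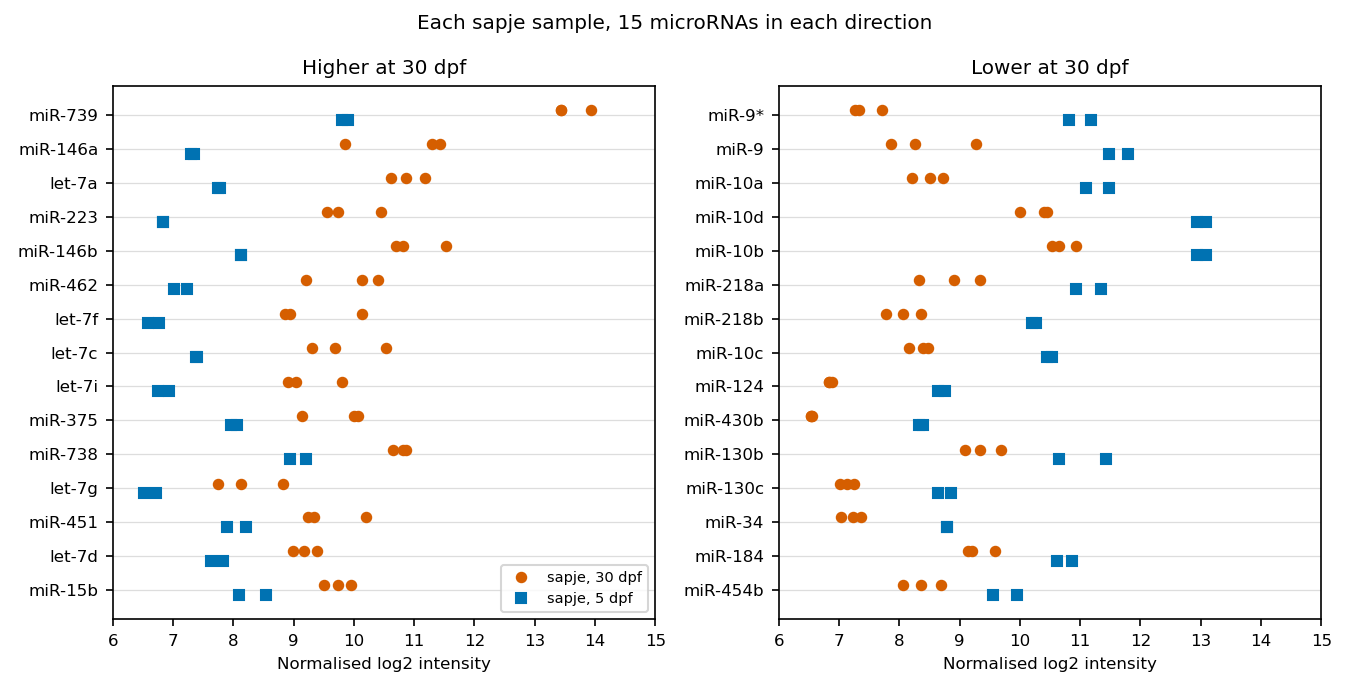
Normalised log2 intensity (horizontal axis) of the 15 microRNAs with the largest increase (left) and the 15 with the largest decrease (right) among those past an adjusted p of 0.05 whose ages did not overlap, each in the 3 sapje samples at 30 dpf (circles) and the 2 at 5 dpf (squares). miR-739 lies at 13.43 to 13.94 at 30 dpf and at 9.80 and 9.91 at 5 dpf, and miR-9* at 7.27 to 7.72 at 30 dpf and at 10.81 and 11.18 at 5 dpf.

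The let-7 family, which acts late in development and whose maturation is blocked by Lin28 in early stages, was higher at 30 dpf in 8 of its 10 tested members and lower in none, with a median difference of 1.53. let-7a read 10.61, 11.18 and 10.86 at 30 dpf, against 7.78 and 7.75 at 5 dpf. All 3 later samples were above both earlier ones by more than 2 log2 units, and let-7a rose 8.72-fold (3.12 ± 0.43, adjusted p = 9.19e-05, limma). let-7i read 9.80, 9.04 and 8.90 at 30 dpf and 6.94 and 6.75 at 5 dpf, a 5.26-fold increase (adjusted p = 1.35e-05, limma). let-7c read 9.30, 10.53 and 9.68 at 30 dpf and 7.38 and 7.40 at 5 dpf, a 5.40-fold increase (adjusted p = 0.00267, limma). Replicate 2 was the highest of the 30 dpf samples for let-7c and for let-7a, while replicate 1 was for let-7i.

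Further let-7 members were not above background in either sample at 5 dpf, so none of them could have been called lower. Their folds are lower bounds under the processing used here. let-7f read 8.94, 10.13 and 8.86 at 30 dpf and 6.77 and 6.58 at 5 dpf, at least 5.98-fold higher (adjusted p = 0.00114, limma). let-7g was at least 2.82-fold higher (adjusted p = 0.00776), let-7j at least 2.28-fold (adjusted p = 2.24e-05) and let-7e at least 2.04-fold (adjusted p = 0.0227, all limma). let-7d was 2.77-fold higher (adjusted p = 0.0167). let-7h (0.95 ± 0.36, adjusted p = 0.052) and let-7b (0.69 ± 0.43, adjusted p = 0.247) did not pass. Of the 10 probes, 9 differ from another let-7 probe by 1 or 2 bases, so signal shared between members cannot be told apart from their own. let-7d, let-7e and let-7g lost their calls without replicate 1 and also without replicate 2 at 5 dpf, whereas let-7a, let-7c, let-7f, let-7i and let-7j kept them in all 18 alternatives. On the authors' deposited table the differences were larger, at 4.75 for let-7f, 3.87 for let-7j and 3.69 for let-7i. The lowest log2 differences over the 18 alternatives were 1.84 for let-7f, 1.69 for let-7i, 1.00 for let-7g, 0.83 for let-7j and 0.69 for let-7e. The lower bounds above therefore do not hold under every alternative.

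MicroRNAs of immune cells followed, with 3 of 5 tested higher, none lower and a median of 2.90. The list has 8 probes on the array, and miR-142a-3p, miR-142a-5p and miR-142b-5p were too dim to be tested. None of these was above background in any sapje sample at 30 dpf, and only miR-142a-3p was in 1 sample at 5 dpf. miR-146a, which in mammals restrains NF-kB signalling by repressing its adaptor proteins, read 11.43, 9.85 and 11.29 at 30 dpf, against 7.29 and 7.34 at 5 dpf. Replicate 2 was the lowest at 30 dpf and still lay above both earlier samples, and miR-146a rose 11.4-fold (3.51 ± 0.58, adjusted p = 0.000352, limma). miR-146b, of the same seed and 4 bases away from miR-146a, read 10.81, 10.70 and 11.53 at 30 dpf and 8.12 in both samples at 5 dpf, a 7.47-fold increase (adjusted p = 0.000241, limma). miR-223, a microRNA of neutrophils and other myeloid cells, read 9.55, 9.74 and 10.45 at 30 dpf and 6.84 in both samples at 5 dpf. The groups were far apart, and miR-223 rose 8.43-fold (3.08 ± 0.36, adjusted p = 2.46e-05, limma). The lymphocyte microRNA miR-150 (0.55 ± 0.45, adjusted p = 0.373) and miR-155, a microRNA of activated lymphocytes and macrophages (0.22 ± 0.31, adjusted p = 0.6), did not pass in limma. miR-155 was above background in all 3 samples at 30 dpf and in neither at 5 dpf, so it could not have been called lower.

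The miR-462 and miR-731 pair, encoded together in bony fish and known there for induction by interferon, was higher in both members. miR-462 read 10.13, 9.21 and 10.40 at 30 dpf, against 7.23 and 7.02 at 5 dpf, and rose 6.55-fold (2.71 ± 0.60, adjusted p = 0.00314, limma). miR-731 rose 2.36-fold (1.24 ± 0.41, adjusted p = 0.0298), a call that was lost without replicate 1 or 3 at 30 dpf, without either sample at 5 dpf, with cyclic loess, with no background correction and with the replicate block. miR-451, the red blood cell microRNA that is matured by Argonaute instead of Dicer, read 9.34, 9.24 and 10.20 at 30 dpf and 7.90 and 8.22 at 5 dpf. Its groups did not overlap and it rose 2.84-fold (1.51 ± 0.42, adjusted p = 0.0128, limma), although the call was lost without replicate 1 at 5 dpf, in a fit to only the sapje samples and with the replicate block. miR-375, a microRNA of pancreatic islets and pituitary, read 10.07, 10.00 and 9.13 at 30 dpf and 7.96 and 8.06 at 5 dpf. It rose 3.42-fold (adjusted p = 0.00943, limma), and leaving out either sample at 5 dpf ended that call. miR-375 was the one call of 5 in the pancreas list. The other 4 had negative differences that did not pass, and the list's median was -0.34.

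The largest difference in this fit was that of miR-739, which read 13.94, 13.43 and 13.43 at 30 dpf, against 9.91 and 9.80 at 5 dpf. All 3 later samples were over 3 log2 units above both earlier ones, a 14.3-fold increase (3.84 ± 1.02, adjusted p = 0.00943, limma). The call was lost without replicate 2 at 5 dpf (3.48, adjusted p = 0.0822). It was 3.00 under median scaling and 3.78 on the authors' deposited table, where let-7f was larger at 4.75. miR-738 read 10.86, 10.81 and 10.64 at 30 dpf and 8.94 and 9.21 at 5 dpf, a 3.24-fold increase (adjusted p = 0.00599) that was lost without replicate 1 at 5 dpf.

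Smaller increases came from other lists of related microRNAs, to be read beside the 17.4% of all tested probes that were higher. Of 8 tested members of the miR-15 and miR-16 list, which restrain the cell cycle in mammals, 3 were higher, none lower and the median was 1.07. miR-15b read 9.50, 9.96 and 9.74 at 30 dpf and 8.54 and 8.09 at 5 dpf and rose 2.63-fold (adjusted p = 0.00267). miR-15a rose 2.49-fold (adjusted p = 0.000711) and miR-457a, of the same seed, 2.18-fold (adjusted p = 0.0167), while miR-16b gave 1.15 ± 0.64 and did not pass. In the miR-23, miR-24 and miR-27 list 3 of 8 were higher, none lower and the median was 0.62. These were miR-23a (2.27-fold, adjusted p = 0.00387), miR-27e (2.15-fold, adjusted p = 0.00204, the one call of 5 with its seed) and miR-23b (1.79-fold, adjusted p = 0.0262). miR-181b and miR-181c rose 1.95-fold and 1.86-fold (adjusted p = 0.0065 and 0.0167, limma), and miR-125b was the one call of 5 in its list (2.17-fold, adjusted p = 0.0261). Among these, miR-15a, miR-15b and miR-27e kept their calls in all 18 alternatives and the rest lost theirs without replicate 1 at 5 dpf. Median scaling ended the calls of miR-23a, miR-125b, miR-181b and miR-181c and left miR-23b at -0.000784 (adjusted p = 0.998). Over all 18 alternatives miR-125b lost its call in 8 and miR-181c in 6, and miR-23b lost its call in 7 besides median scaling.

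**Figure D2:**
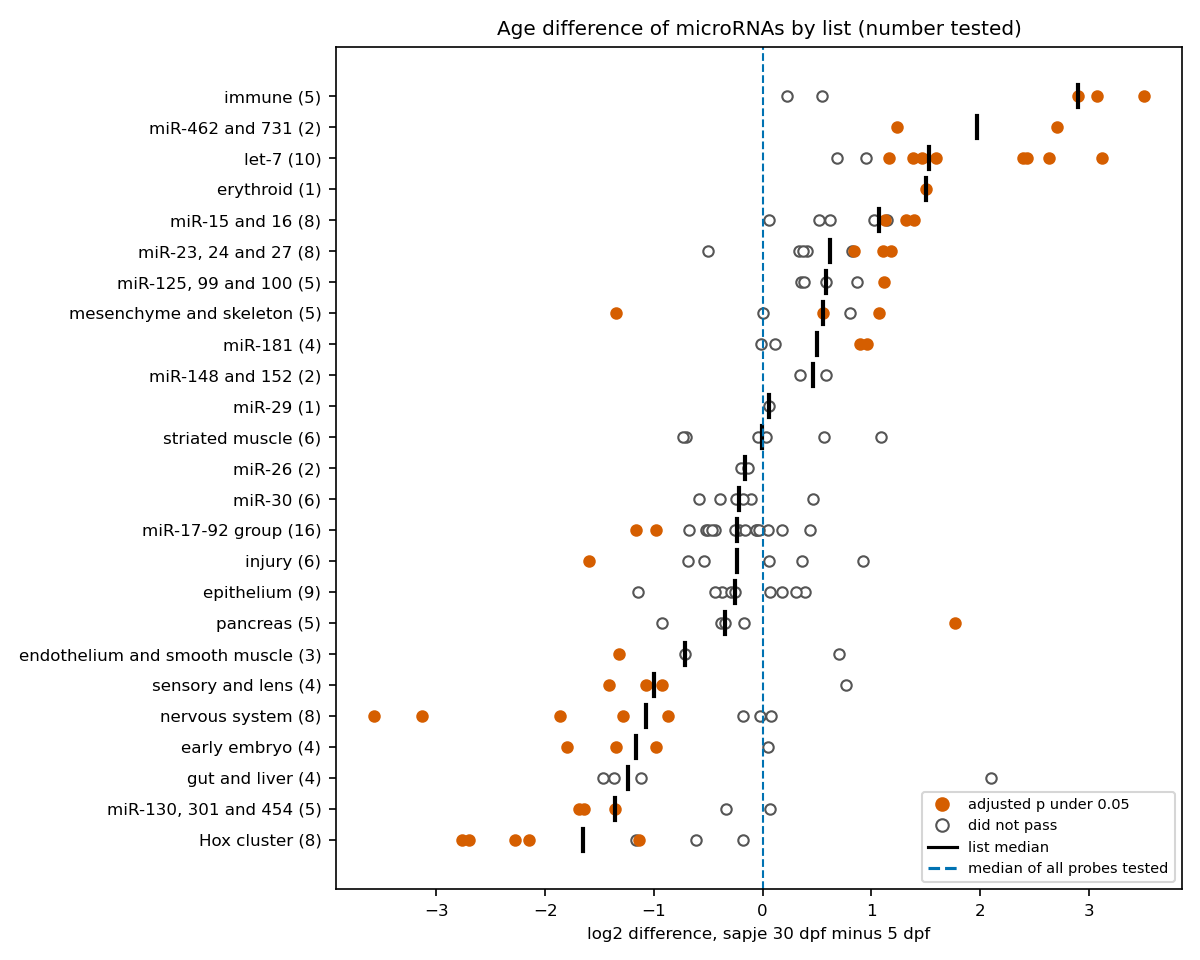
Difference in log2 intensity between sapje at 30 dpf and at 5 dpf (horizontal axis) for each tested microRNA of 25 tissue or family lists, with the number tested in parentheses; filled circles passed an adjusted p of 0.05, open circles did not, bars mark list medians and the dashed line the median of all tested probes. The immune list has the highest median at 2.90 and the Hox cluster list the lowest at -1.66.

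The microRNAs of the nervous system were lower at 30 dpf in 5 of 8 tested, higher in none, with a median of -1.08. Of the 8 differences 1 was positive, at 0.08, and did not pass. The list has 14 probes on the array. miR-129, miR-137, miR-153a, miR-153b, miR-153c and miR-219 were too dim to be tested, and none of these was above background in sapje at 5 dpf. miR-9*, the passenger strand of miR-9, which both act in neural progenitors and neurons, read 7.27, 7.72 and 7.32 at 30 dpf, against 11.18 and 10.81 at 5 dpf. The 5 dpf samples stood over 3 log2 units above every 30 dpf sample, and miR-9* fell 11.9-fold (-3.57 ± 0.27, adjusted p = 8.79e-07, limma). miR-9 read 8.26, 9.27 and 7.86 at 30 dpf and 11.79 and 11.48 at 5 dpf, an 8.75-fold decrease (adjusted p = 0.000259, limma). miR-124, which is largely restricted to neurons, read 6.84, 6.84 and 6.88 at 30 dpf and 8.75 and 8.65 at 5 dpf. The 3 later samples lay within 0.1 log2 units of each other and below both earlier ones, and miR-124 fell 3.64-fold (-1.86, adjusted p = 0.000149, limma). Its log2 difference was -1.26 with no background correction and -3.66 on the authors' deposited table. miR-138 (2.43-fold, adjusted p = 0.00222) and miR-132 (1.83-fold, adjusted p = 0.0221), both known for roles at synapses, also fell. miR-128 (-0.18 ± 0.22, adjusted p = 0.558) did not pass. miR-212, of the same seed as miR-132, gave -0.03 and was above background at 30 dpf and not at 5 dpf. Scaling to the 75th percentile ended the calls of miR-138 and miR-132. The call of miR-132 was lost in 8 of 18 alternatives. These included cyclic loess, a fit to only the sapje samples, the replicate block and leaving out either sample at 5 dpf.

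miR-218a and miR-218b, which are hosted by Slit genes and are strong in motor neurons, both fell. miR-218a read 8.90, 9.34 and 8.32 at 30 dpf and 11.34 and 10.94 at 5 dpf, a 4.79-fold decrease (adjusted p = 6.44e-05, limma). miR-218b read 8.06, 8.35 and 7.78 at 30 dpf and 10.27 and 10.20 at 5 dpf, a 4.59-fold decrease (adjusted p = 2.75e-05, limma). Neither member's groups overlapped. The probes differ by 2 bases.

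Of the microRNAs encoded in the Hox clusters, 5 of 8 were lower and none higher, with a median of -1.66, and all 4 that share the miR-10 seed ACCCUGU fell. miR-10a read 8.51, 8.73 and 8.22 at 30 dpf, against 11.48 and 11.10 at 5 dpf, a 6.81-fold decrease (adjusted p = 6.44e-05, limma). miR-10d read 10.40, 10.45 and 10.00 at 30 dpf and 12.94 and 13.08 at 5 dpf, a 6.51-fold decrease (adjusted p = 0.000241, limma). The samples of an age lay within 0.6 log2 units for both. miR-10b read 10.64, 10.94 and 10.53 at 30 dpf and 13.08 and 12.94 at 5 dpf, a 4.85-fold decrease (adjusted p = 0.00155, limma). miR-10c read 8.48, 8.15 and 8.39 at 30 dpf and 10.53 and 10.45 at 5 dpf, a 4.44-fold decrease (adjusted p = 2.75e-05, limma). Each of the 4 probes differs from another by 1 base, so their signals are not independent. The passenger strand miR-10d* fell 2.20-fold (adjusted p = 0.00943, limma), a call lost under 75th percentile scaling and without replicate 1 at 5 dpf. The passenger strand miR-10a* (-0.18 ± 0.26, adjusted p = 0.62), miR-196a (-1.16 ± 0.57, adjusted p = 0.14) and miR-196b (-0.62 ± 0.51, adjusted p = 0.373) did not pass in limma.

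The miR-430 family, which clears maternal messenger RNA in the early zebrafish embryo, was lower in 3 of 4 tested members. All 3 were above background in sapje only at 5 dpf, so none of them could have been called higher. miR-430b read 6.53, 6.54 and 6.55 at 30 dpf, against 8.39 and 8.32 at 5 dpf. None of the 3 later samples was above background, so the fold is a lower bound under the processing used here. By this bound miR-430b was at least 3.22-fold lower (-1.79 ± 0.16, adjusted p = 1.94e-06, limma). miR-430c read 6.56, 6.52 and 6.60 at 30 dpf and 7.86 and 7.90 at 5 dpf, at least 2.32-fold lower (adjusted p = 0.00155, limma). miR-430a read 6.48, 6.53 and 6.53 at 30 dpf and 7.47 and 7.60 at 5 dpf, at least 1.82-fold lower (adjusted p = 0.00599, limma). miR-430j was not above background in any sapje sample. Scaling to the 75th percentile ended the calls of miR-430a and miR-430c, and that of miR-430a was also lost with cyclic loess and without replicate 1 at 5 dpf. On the authors' deposited table the differences were -4.69 for miR-430b, -3.59 for miR-430c and -3.57 for miR-430a, and with no background correction -1.12, -0.81 and -0.54 in the same order.

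Of the miR-130, miR-301 and miR-454 list 3 of 5 were lower, with a median of -1.36. miR-130b read 9.68, 9.09 and 9.34 at 30 dpf and 10.64 and 11.43 at 5 dpf, a 3.22-fold decrease (adjusted p = 0.00172). miR-130c read 7.02, 7.25 and 7.13 at 30 dpf and 8.65 and 8.86 at 5 dpf, a 3.12-fold decrease (adjusted p = 0.000252). miR-454b fell 2.57-fold (adjusted p = 0.013), whereas miR-130a, 1 base away from miR-130c, gave 0.07 ± 0.19. In the group of clusters that holds miR-17 and miR-92, tied to proliferation in mammals, 2 of 16 were lower and none higher, a share under the 18.0% lower among all tested probes, with a median of -0.23. These were miR-18c (2.24-fold, adjusted p = 0.000204) and miR-18a (1.97-fold, adjusted p = 0.0318), of one seed. miR-103 and miR-107, another pair with one seed, fell 2.16-fold and 1.92-fold (adjusted p = 0.00776 and 0.0115, limma). The calls of miR-454b, miR-18a, miR-18c, miR-103 and miR-107 were all lost under 75th percentile scaling, and all but that of miR-18c also without replicate 2 at 5 dpf. Over the 18 alternatives miR-18a lost its call in 7, among them the replicate block and every fit that left out 1 sapje sample. miR-454b and miR-107 each lost theirs in 4.

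Sensory and lens microRNAs were lower in 3 of 4 tested, beside 18.0% of all tested probes. miR-184, a microRNA of lens and cornea, read 9.59, 9.13 and 9.21 at 30 dpf and 10.61 and 10.86 at 5 dpf, a 2.66-fold decrease (adjusted p = 0.00267). miR-182 and miR-183, of hair cells and photoreceptors, fell 2.10-fold and 1.90-fold (adjusted p = 0.00943 and 0.0254, limma), and miR-204 gave 0.77 ± 0.67. miR-34, a target of p53 in mammals, read 7.23, 7.04 and 7.36 at 30 dpf and 8.79 in both samples at 5 dpf. It fell 3.02-fold (adjusted p = 0.00114) and was the one call of 6 in the injury list. The calls of miR-182 and miR-183 were lost without either sample at 5 dpf. That of miR-183 was also lost with cyclic loess, median scaling, the authors' deposited table and the replicate block, and without replicate 2 at 30 dpf. Scaling to the 75th percentile ended the calls of miR-184, miR-182 and miR-34, and under it the value of miR-183 turned to 0.06 (adjusted p = 0.916).

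**Figure D3:**
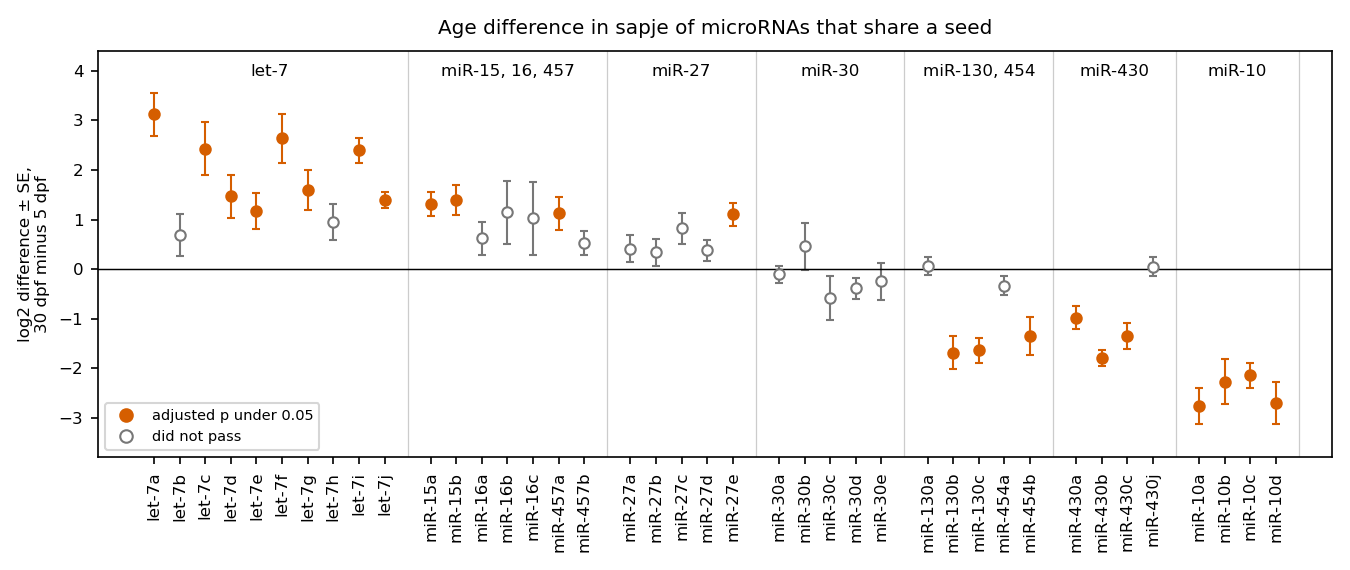
Difference in log2 intensity, sapje at 30 dpf minus 5 dpf, ± SE (vertical axis), for the tested members of 7 families that share a seed; filled circles passed an adjusted p of 0.05 and open circles did not. All 4 members with the miR-10 seed lie between -2.77 and -2.15, and the 10 let-7 members between 0.69 and 3.12.

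Members that share a seed did not move in opposite directions past the threshold. Of the 32 seeds carried by at least 2 tested probes, 11 had at least 2 calls and none had calls of both signs. Such probes resemble each other beyond the seed, and 51 of all tested probes had a neighbour at most 1 base away. Where both strands of a hairpin were tested, 8 of 13 pairs had differences of the same sign. Over all tested probes 84 differences were positive and 83 negative. Both strands of miR-9 and of miR-10d fell, whereas miR-140*, of cartilage, fell 2.54-fold (adjusted p = 0.0167, limma) and miR-140 gave 0.00 and was above background in 1 of the 5 samples. miR-10a fell (-2.77), while miR-10a* gave -0.18 and did not pass. miR-199* rose 2.10-fold (adjusted p = 0.00991), beside 0.81 ± 0.31 for miR-199 (adjusted p = 0.056). miR-214, of the same mesenchymal cluster, rose 1.47-fold (adjusted p = 0.0345), a call that was lost under 11 of 18 alternatives, while median scaling turned its value to -0.29. The calls of miR-199* and miR-140* were lost without replicate 1 at 5 dpf, that of miR-199* also under median scaling and on the authors' deposited table, and that of miR-140* also under 75th percentile scaling and with no dye term.

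No microRNA of striated muscle passed the test, 0 of 6 tested, with a median of 0.00, beside 59 of all 167 in limma. At an unadjusted p below 0.05 the count was 1. miR-1 read 13.43, 14.30 and 13.94 at 30 dpf, against 13.43 and 13.22 at 5 dpf. Replicate 1 at 30 dpf was no higher than replicate 1 at 5 dpf, and the difference was 0.56 ± 0.29 (adjusted p = 0.156, limma). miR-206, which shares the seed of miR-1 and is known for muscle regeneration in mammals, read 13.64, 13.94 and 14.30 at 30 dpf and 14.65 in both samples at 5 dpf, the top of the scale. Its difference was -0.70 ± 0.31 (adjusted p = 0.102). miR-133a read 11.34, 11.73 and 12.16 at 30 dpf and 12.30 and 11.29 at 5 dpf, so the groups overlapped, and miR-133b (0.03 ± 0.57), miR-133c (1.09 ± 0.98) and miR-499 (-0.73 ± 0.48) did not pass either.

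MicroRNAs of liver and gut also gave no call in limma, 0 of 4, beside 35.3% of all tested probes. At an unadjusted p below 0.05 the count was 1, and their spread at 30 dpf was wide. miR-122, the hepatocyte microRNA, read 12.80, 11.10 and 9.64 at 30 dpf, against 9.27 and 9.04 at 5 dpf. All 3 later samples were higher, by amounts that ranged from under 1 to over 3 log2 units, and the difference was 2.11 ± 1.24 (adjusted p = 0.215, limma). miR-192, of gut epithelium and liver, read 14.30, 11.53 and 10.81 at 30 dpf and 13.64 in both samples at 5 dpf. Replicate 1 lay above the 5 dpf samples and the other two below, with a difference of -1.37 ± 1.58 (adjusted p = 0.53). miR-194a read 12.49, 8.86 and 9.27 at 30 dpf and 11.73 and 11.53 at 5 dpf (-1.47 ± 1.28, adjusted p = 0.39), and the pancreatic miR-217 read 9.64, 7.40 and 7.63 at 30 dpf and 9.04 and 9.24 at 5 dpf. Without replicate 1 at 30 dpf miR-122 gave 1.22 (adjusted p = 0.484), miR-192 -2.47 (adjusted p = 0.277), miR-194a -2.56 (adjusted p = 0.134) and miR-217 -1.62 (adjusted p = 0.0658), and miR-194b passed at -1.46 (adjusted p = 0.0241).

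Calls in further tissue lists are to be read beside the 35.3% called among all tested probes. Of 9 epithelial microRNAs none passed in limma and 1 had an unadjusted p below 0.05, with values between -1.15 for miR-203b (adjusted p = 0.0527) and 0.39 for miR-200b, and the list's median was -0.25. In the endothelium and smooth muscle list 1 of 3 tested was called. This was miR-143, of smooth muscle, which read 9.17, 8.06 and 8.51 at 30 dpf and 9.74 and 10.00 at 5 dpf. It fell 2.50-fold (adjusted p = 0.0167, limma). The call was lost without replicate 2 of either age, under 75th percentile scaling, in a fit to only the sapje samples and with the replicate block. miR-145, encoded beside it, gave -0.71 ± 0.42 (adjusted p = 0.215), and the endothelial miR-126 gave 0.70 ± 0.27 (adjusted p = 0.0557). miR-21, which rises in injured and fibrotic tissue in mammals, read 14.65 in all 3 samples at 30 dpf and 14.30 in both at 5 dpf. These are the top 2 ranks of the scale, and its difference of 0.37 ± 0.20 did not pass (adjusted p = 0.193). No member of the miR-30 (6 tested), miR-26, miR-29 or miR-148 and miR-152 lists passed in limma, nor had any an unadjusted p below 0.05.

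The same test in the wild type fish of the cohort called 91 of 167 probes (54.5%), 44 higher (26.3%) and 47 lower (28.1%). Of the 59 sapje calls, 52 were also called in wild type SW with the same sign, which is 88.1% of the sapje calls and 57.1% of those in SW, and none had the opposite sign. The 7 not called in SW were miR-125b, miR-181b, miR-181c, miR-214, miR-23b, miR-454b and miR-739. Between sapje and sapje-like, whose test called 54 probes (32.3%), 39 calls were shared with the same sign and none with the opposite one, which is 66.1% of the sapje calls and 72.2% of those in sapje-like. Counts past a threshold do not show that the mutant and the wild type age differences differ, so that difference was tested for each probe.

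**Figure D4:**
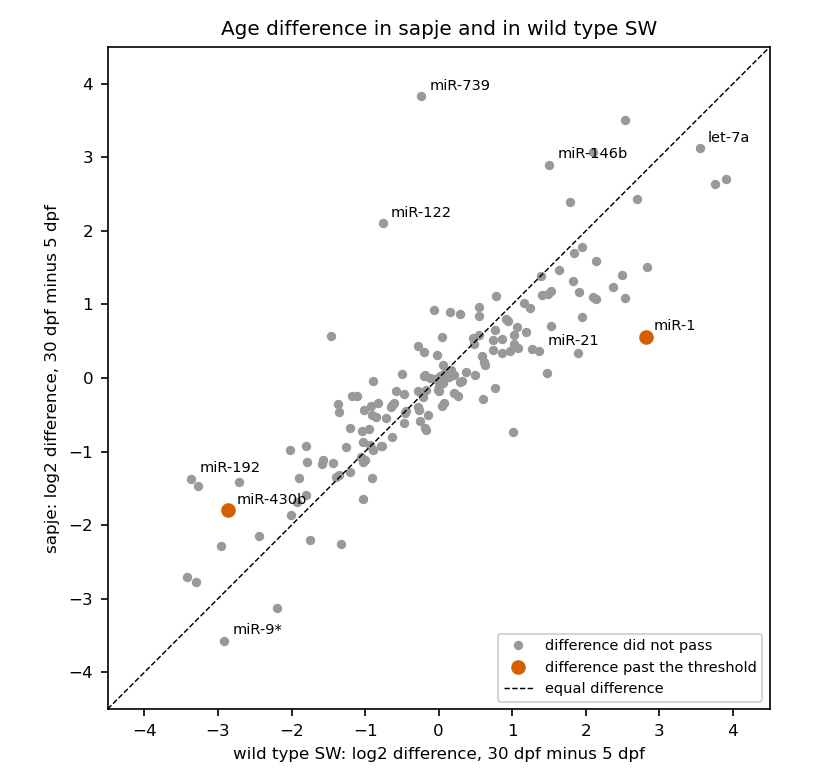
Difference in log2 intensity, 30 dpf minus 5 dpf, in sapje (vertical axis) against that in wild type SW (horizontal axis) for the 167 tested microRNAs; the dashed line marks equal differences. The 2 large points, miR-1 and miR-430b, are those whose differences between the lines passed an adjusted p of 0.05; miR-739 lies at 3.84 in sapje and -0.24 in wild type SW.

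The age difference in sapje departed from that in wild type SW for 2 of 167 probes (1.2%), with 20 at an unadjusted p below 0.05. For miR-1 the difference of 0.56 in sapje stood against 2.81 ± 0.29 in SW, where it read 14.65 in all 3 samples at 30 dpf and 11.60 and 12.09 at 5 dpf. The value of 14.65 is the top of the scale, so the SW samples at 30 dpf are capped and show no spread. Both sapje samples at 5 dpf were above both SW samples of that age, and all 3 sapje samples at 30 dpf were below the SW samples. The age difference in sapje minus that in SW was -2.25 ± 0.41 (adjusted p = 0.0138, limma), and it was past the threshold in 16 of 23 alternatives, over all of which it lay between -2.72 and -1.96. It was not past it with cyclic loess, median or 75th percentile scaling or the authors' deposited table, nor without replicate 1 or replicate 2 of sapje at 5 dpf or replicate 1 of SW at 5 dpf. The 16 alternatives in which it passed all used the quantile normalisation. For miR-430b the lines differed at 5 dpf, 8.39 and 8.32 in sapje and 9.59 and 9.17 in SW, while neither was above background at 30 dpf. The age difference in sapje minus that in SW was 1.07 ± 0.22 (adjusted p = 0.0242) and was past the threshold in 7 of 23 alternatives, with values of 0.85 to 1.80 over all of them.

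Against sapje-like the age difference departed for 2 of 167 probes (1.2%), with 19 at an unadjusted p below 0.05, and both were miR-430 members. miR-430b read 8.39 and 8.32 in sapje at 5 dpf and 9.64 and 10.13 in sapje-like at 5 dpf, and was not above background in any 30 dpf sample of these lines. The age difference in sapje minus that in sapje-like was 1.42 ± 0.22 (adjusted p = 0.00302, limma). miR-430a read 7.47 and 7.60 in sapje at 5 dpf and 9.21 and 9.30 in sapje-like at 5 dpf, and its difference was 1.60 ± 0.34 (adjusted p = 0.0293). These differences turn on the 5 dpf samples, since the 30 dpf side is a limit of detection. miR-430b held in 19 of 23 alternatives and miR-430a in 11 of 23, and neither held under cyclic loess, median or 75th percentile scaling or the authors' table.

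A further pair of contrasts did not pass, both singled out after their values were seen. The age difference of miR-739 was 3.84 in sapje and -0.24 ± 1.02 in SW (adjusted p = 0.874), where it read 8.73, 9.09 and 9.74 at 30 dpf and 9.68 and 8.99 at 5 dpf. The sapje samples at 30 dpf lay over 3 log2 units above all SW samples, and the age difference in sapje minus that in SW was 4.08 ± 1.45 (adjusted p = 0.262, limma). It passed in 1 of 23 alternatives, a fit to only the sapje and SW samples (adjusted p = 0.00975). In sapje-like miR-739 read 12.67, 11.96 and 13.22 at 30 dpf and 9.80 and 10.00 at 5 dpf. For miR-21 the age difference was 0.37 ± 0.20 in sapje and 1.37 ± 0.20 in SW, which read 13.94 in all 3 samples at 30 dpf and 12.80 and 12.30 at 5 dpf. The sapje samples sat at the top 2 ranks of the scale at both ages, which caps the difference they can show. The test of the difference between the lines gave an adjusted p of 0.229 (limma).

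**Figure D5:**
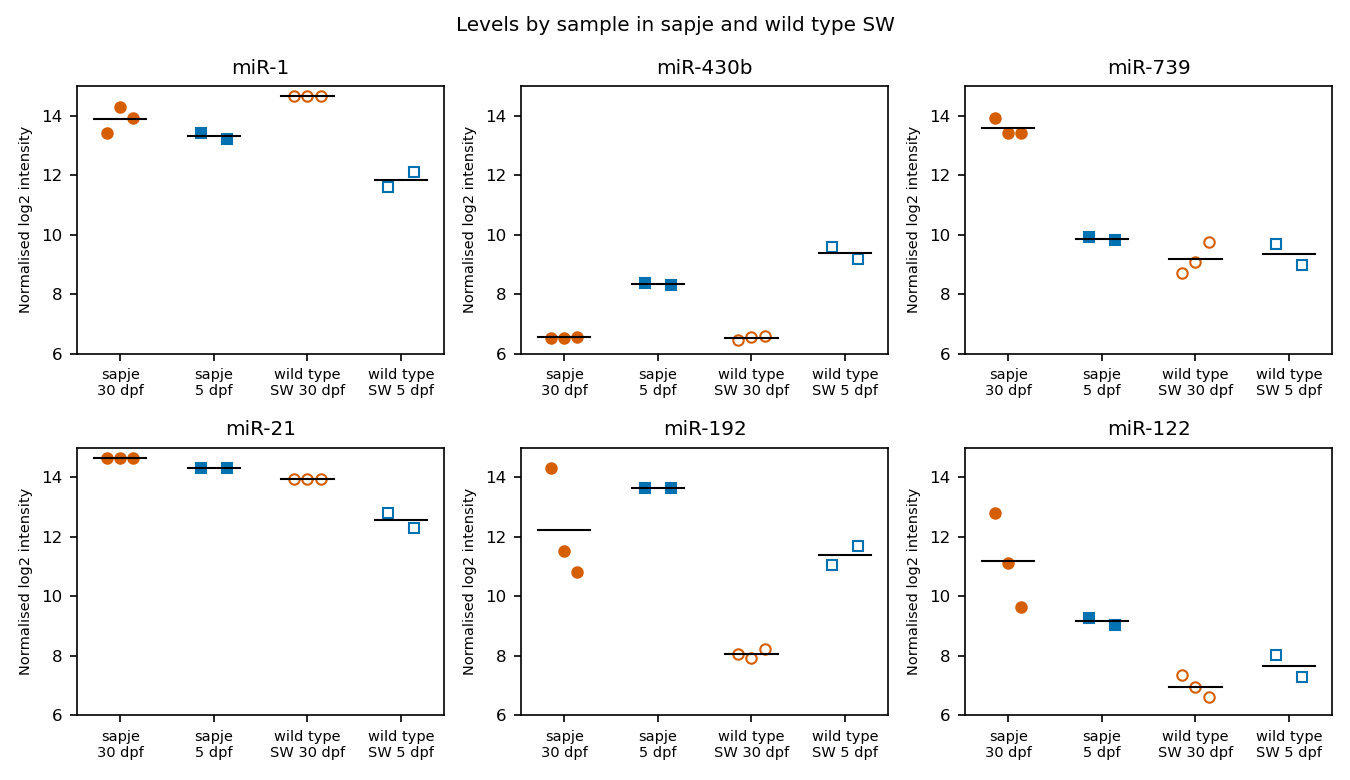
Normalised log2 intensity (vertical axis) of 6 microRNAs in every sapje and wild type SW sample, with circles for 30 dpf, squares for 5 dpf, filled for sapje and open for SW, and bars at group means. miR-1 spans 13.22 to 14.30 in sapje and 11.60 to 14.65 in SW, and miR-192 in sapje at 30 dpf spans 10.81 to 14.30.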

How the data were processed

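Small RNA of whole zebrafish was measured on 2-colour microRNA arrays (LC Sciences) in 20 samples, each one dye channel; the sapje samples were Cy3, Cy5 and Cy3 at 30 dpf and Cy3 and Cy5 at 5 dpf. The deposited scanner files give the mean intensity of each of 3968 spots without background removed, per the file headers, with 12 spots for each of 219 mature zebrafish probes and 1048 empty spots. The authors' deposited table gives 1 processed intensity per probe and sample, on a linear scale as the values show; how they corrected and scaled it is not stated in the labels, and it served as an alternative (correlation of log2 values 0.964 to 0.981 per sample).

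Intensities were corrected by normexp (offset 50), taken to log2, averaged over spots and quantile normalised over the mature probes. A probe was above background where its mean exceeded the empty-spot median by over 3 SD, and 105 to 173 probes per sample were. The number of arrays limits precision. limma 3.58.1 in R 4.3.3 was fitted to 8 groups and the dye over all 20 samples (11 residual degrees of freedom), with two-sided p-values adjusted by Benjamini and Hochberg over 167 probes. Wild type SLW at both ages was among these groups, so its samples entered the spread and the dye term of every test. Folds given as at least a value set the brighter age's mean against a floor, which in each sample of the other age was its dimmest detected probe or, if larger, the probe itself. Such folds hold for the processing above and not for every alternative. The 15 higher and 15 lower probes with the largest differences among those past the threshold with no overlap between ages, every probe past the threshold in the comparisons of age differences, and members of 25 lists were named. The members and lists were chosen with earlier results of these data known, so no p-value is given for a list. Alternatives covered background, scaling, filters, spot summary, dye, samples fitted, shared array, replicate number and each left-out sample. The replicate block added terms for replicate number within the sapje samples. Replicate 3 of sapje exists only at 30 dpf, so under that block it added nothing to the age difference. Plots were made in matplotlib 3.10.9 (Python 3.11.15).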

Additional observations from a re-analysis of the deposited data

Results flagged for a closer look

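Age differences that departed between lines by a test of the difference itself were those of miR-1 and miR-430b between sapje and wild type SW and those of miR-430b and miR-430a between sapje and sapje-like. For miR-1 the age difference in sapje minus that in SW was -2.25 log2 units, with the SW samples at 30 dpf at the top of the scale. For miR-430b it was 1.07 against SW and 1.42 against sapje-like, and for miR-430a it was 1.60 against sapje-like. Both miR-430 members were below background at 30 dpf in the lines compared, so these values set 5 dpf levels against a limit of detection. Each sapje sample shared an array with an SW sample, as inferred from spot residuals, and fitting the shared array as a random block left the calls of miR-1 and miR-430b past the threshold. Against SW, over all 23 alternatives, miR-1 was past it in 16 and miR-430b in 7, and the replicate block ended the call of miR-430b (adjusted p = 0.104).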

How the results depend on the processing

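Of the 59 calls, 24 (12 higher and 12 lower) were past the threshold in all 18 alternatives. Over the alternatives other than leaving out 1 sample, 29 were. Those include the replicate block, in which replicate 3 of sapje at 30 dpf had no weight in the age difference. In limma 3 calls changed sign. miR-183 did so under 75th percentile scaling (0.0559, adjusted p = 0.916). Under median scaling miR-214 (-0.29, adjusted p = 0.444) and miR-23b (-0.000784, adjusted p = 0.998) did. The cause was not tested. Leaving out 1 sample gave 33 to 64 calls. Deviations from the group mean of samples with the same replicate number correlated across ages at -0.066 and -0.20, and at 0.0686 and -0.0875 after the dye term. The 2 samples at 5 dpf have deviations that mirror each other, so these values cannot show whether replicate numbers pair samples. The replicate block gave 45 calls, 20 higher and 25 lower. With the authors' deposited values, 20 of the 59 differences were over 1.5 times as large, among them let-7f at 4.75. Scaling to the 75th percentile gave 97 calls in sapje-like. For sapje against SW the count of 2 fell to 0 under cyclic loess, median scaling, 75th percentile scaling and the authors' table, and to 1 with a normexp offset of 16, a stricter filter or the replicate block; leaving out 1 sample gave 0 to 5, the 5 without replicate 2 of SW at 5 dpf. For sapje against sapje-like the same 4 settings gave 0 and the replicate block 1; leaving out 1 sample gave 1 to 4, the 4 without replicate 1 of sapje at 30 dpf. Probes near background limit what is shown of miR-430, of 5 let-7 members and of miR-155, among others.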
